A study of Mus musculus with 8 samples.

Results

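The distal-less (DLX) and muscle segment homeobox (MSX) genes of the mouse, Dlx1 to Dlx6, Msx1 and Msx2, were followed in growing molars. The 8 genes were taken by name, and all 8 were measured among the 17631 genes of the authors' comparison. RNA came from the apical part of lower first molars of C57BL/6 mice at postnatal day 7.5. The mutant animals carried Gli1-CreERT2;Runx2fl/fl, which is a tamoxifen-inducible recombinase at the Gli1 locus together with floxed copies of Runx2, a transcription factor needed for bone formation. The control animals carried Runx2fl/fl and no recombinase. Both groups had 4 libraries, and the labels' protocol gives tamoxifen for every sample, 1.5 mg for each 10 g of mouse on postnatal day 3.5. The recombinase acts only in cells that express Gli1 while tamoxifen is present. Cells of the molar outside the lineages of those cells keep Runx2. The driver and the deletion cannot be told apart because both are found only in the mutant group.

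DLX and MSX proteins bind short TAATT-containing DNA elements through a homeodomain, and they answer to BMP, FGF and endothelin signals exchanged between the epithelium and the mesenchyme of the tooth germ. DLX proteins mostly activate transcription, whereas MSX proteins mostly repress it, and members of both families can bind each other. The 6 DLX genes lie as 3 convergent pairs in the genome, and each pair shares enhancers. In mouse tooth development Msx1 is needed for the bud to proceed, Dlx1 and Dlx2 together for upper molars, and Dlx5 and Dlx6 together for the identity of the lower jaw.

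No DLX or MSX gene passed the authors' threshold, an adjusted p of 0.05, between mutant and control molars (0 of 8, where 0.788% of all genes passed). Their levels stayed within a 1.23-fold difference, with 5 means lower and 3 higher in the mutant, where 49.4% of all genes were lower. The transcript that did pass at these loci was Dlx6os1, a long non-coding RNA whose span covers Dlx6 and whose start lies toward Dlx5. It rose 1.47-fold in the mutant (adjusted p = 0.041 per the authors' deposited table). Its call was lost when a trend on GC content and length, which runs through the whole comparison, was taken out.

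The start sites of Dlx6os1 are shown because it was the transcript that passed, together with those of Dlx2, the member with the lowest p, and of Msx1, a member with nearly equal means. Each sequence is the stretch of 250 bases before a RefSeq start on GRCm38.p6, written 5′ to 3′ on the strand of the gene. All 4 windows are on the minus strand. Capitals mark the homeodomain core TAATTA. They also mark a second form of that core, which is TAATTG, where it appears on either strand. Read on the opposite strand, this second form is CAATTA.

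Dlx6os1, chr6:6869534-6869783: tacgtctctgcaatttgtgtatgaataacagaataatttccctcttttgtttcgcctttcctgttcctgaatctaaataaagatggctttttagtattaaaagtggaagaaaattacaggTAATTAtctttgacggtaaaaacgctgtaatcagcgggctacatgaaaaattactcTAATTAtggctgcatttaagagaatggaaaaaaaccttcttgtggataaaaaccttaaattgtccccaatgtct

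Dlx6os1, chr6:6861684-6861933: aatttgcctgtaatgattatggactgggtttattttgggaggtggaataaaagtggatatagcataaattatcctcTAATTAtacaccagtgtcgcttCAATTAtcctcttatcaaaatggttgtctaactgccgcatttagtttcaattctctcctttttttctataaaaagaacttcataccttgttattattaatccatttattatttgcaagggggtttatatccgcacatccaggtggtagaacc

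Dlx2, chr2:71546755-71547004: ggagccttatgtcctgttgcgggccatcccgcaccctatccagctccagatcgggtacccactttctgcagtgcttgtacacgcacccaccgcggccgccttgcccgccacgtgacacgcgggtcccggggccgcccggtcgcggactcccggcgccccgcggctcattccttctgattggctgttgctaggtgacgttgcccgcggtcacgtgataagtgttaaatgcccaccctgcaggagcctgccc

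Msx1, chr5:37824586-37824835: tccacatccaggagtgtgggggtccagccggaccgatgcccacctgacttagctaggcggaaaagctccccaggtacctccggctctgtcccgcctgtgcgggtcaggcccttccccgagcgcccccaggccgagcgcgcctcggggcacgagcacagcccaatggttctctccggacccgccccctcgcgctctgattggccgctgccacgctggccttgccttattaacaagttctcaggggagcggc

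The first Dlx6os1 start lies between Dlx6 and Dlx5, and its window held TAATTA 2 times, beginning at positions -130 and -74 relative to the start. The second window held TAATTA 1 time and CAATTA 1 time. Across 32851 promoter windows of the same length, 4.84% held TAATTA and 7.17% held the second form on either strand. No motif match was present in the Dlx2 or Msx1 windows, and the window of Msx2 held 1 TAATTA. The RUNX core TGTGGT, searched on both strands (ACCACA), was in 14.0% of all windows and in none of the 8 windows found for Dlx1, Dlx2, Msx1, Msx2, Dlx4os, Dlx6os2 and the 2 Dlx6os1 starts. Both Dlx6os1 windows were AT-rich, with 33.2% and 34.0% GC, against 66.4% in Dlx2 and 68.0% in Msx1. A match or its absence is a property of these letters only.

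The values are group means of normalised signal, so no value per library, spread or standard error can be given. Means, ratios, p and adjusted p of each gene come from the authors' deposited table unless another origin is named. The labels do not say whether each library is 1 animal, so the p-values reflect only variation among these libraries, part of which may be technical. Sequencing depth is unknown, and over all genes the means add up to 955256 in mutant and 1050684 in control molars. Runx2 had 65.1 in mutant and 105.5 in control molars (the authors' adjusted p = 0.0646), and Gli1 had 19.9 in mutant and 38.8 in control molars (adjusted p = 0.0228). With the GC and length fit described below taken out of the authors' comparison, Gli1 went from a log2 ratio of -0.96 to -0.87 and was outside the threshold (adjusted p = 0.0661). The recombinase lies at the Gli1 locus in the mutant group only, and its own effect on the Gli1 value was not tested. The Runx2 value covers the whole gene, also outside the floxed part, and cells without the recombinase. Markers of enamel-forming and dentin-forming cells were abundant, with Amelx at 112174 in mutant and 174946 in control molars and Dspp at 7360 in mutant and 7714 in control molars, so the tissue held epithelium and mesenchyme. In such bulk tissue, fewer cells of a type and less RNA per cell cannot be told apart.

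Across all genes, 0.788% passed an adjusted p of 0.05, 0.471% as higher and 0.318% as lower in the mutant. Against so low a share, 0 of 8 members says little about them. At an unadjusted p under 0.05, 2 of 8 members passed, where 19.3% of all genes did. Both were lower, where 9.4% of all genes did so as lower. No member passed as higher at that level, where 9.89% of all genes did. None passed at an adjusted p of 0.1, where 3.64% of all genes did, or when genes with both means under 1 were left out before the adjustment, where 1.19% did. The median log2 ratio of the members was -0.17, against 0.00 over all genes.

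On GRCm38 Dlx3 spans 95120119 to 95125296 of chromosome 11 (plus strand) and Dlx4 95140447 to 95146263 (minus strand), both protein-coding like all members. Dlx3, the most abundant member, is linked in humans to a syndrome of hair, enamel and bone, and acts in mouse odontoblasts and ameloblasts. Its mean was 424.1 in mutant and 494.0 in control molars, per the authors' deposited table, a 1.16-fold lower value (p = 0.0315, adjusted p = 0.213). Dlx4, its pair partner on chromosome 11, had 96.8 in mutant and 108.7 in control molars, or 1.12-fold lower (the authors' adjusted p = 0.389). The members of this pair thus had nearly the same ratio, with log2 values of -0.22 for Dlx3 and -0.17 for Dlx4. Dlx4os, which starts inside Dlx4 and runs the other way, had 46.5 in mutant and 44.7 in control molars (the authors' adjusted p = 0.838).

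Dlx2 and Dlx1, on chromosome 2, gave ratios on either side of 1. Dlx1 spans 71528113 to 71533981 on the plus strand and Dlx2 71543408 to 71546754 on the minus strand. Dlx2, which acts in both layers of the early tooth germ, had the lowest p of the members (0.0069). Its mean was 136.3 in mutant and 167.1 in control molars, 1.23-fold lower (adjusted p = 0.121 per the authors' deposited table). Dlx1 had 37.2 in mutant and 35.4 in control molars (log2 ratio 0.07, the authors' adjusted p = 0.744). The log2 ratios of this pair differed by -0.36, Dlx2 minus Dlx1, and no test of that difference could be made from group means. Dlx1as, a transcript across Dlx1 on the opposite strand, had 1.34 in mutant and 0.583 in control molars, a 2.30-fold higher value outside the threshold (the authors' p = 0.00259, adjusted p = 0.0903). Its level was near the bottom of the table, at percentile 15.6 of control means, and with a pseudocount of 1 the difference was 1.48-fold.

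Dlx5 and Dlx6, on chromosome 6, followed the same order as Dlx2 and Dlx1. Dlx5, an activator of osteoblast genes, had 105.1 in mutant and 119.3 in control molars, 1.14-fold lower (the authors' p = 0.0734, adjusted p = 0.303). Dlx6 had 34.7 in mutant and 34.0 in control molars (log2 ratio 0.03, the authors' adjusted p = 0.881). Here the log2 ratios differed by -0.21, Dlx5 minus Dlx6. In each DLX pair the member with the higher level had the lower ratio, though Dlx3 and Dlx4 were nearly the same (log2 -0.22 and -0.17). This pattern was not tested.

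Msx1 and Msx2 are unlinked genes, on chromosomes 5 (37820485 to 37824583) and 13 (53466884 to 53473074), both on the minus strand. Msx1 is a mesenchymal factor whose loss in humans causes missing teeth. It had 153.3 in mutant and 147.8 in control molars (log2 ratio 0.05, the authors' adjusted p = 0.842). Msx2, which acts in ameloblast differentiation and skull sutures, had 290.1 in mutant and 326.8 in control molars, per the authors' deposited table. The value was 1.13-fold lower, with the authors' p = 0.0571 and adjusted p = 0.274.

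**Figure D1:**
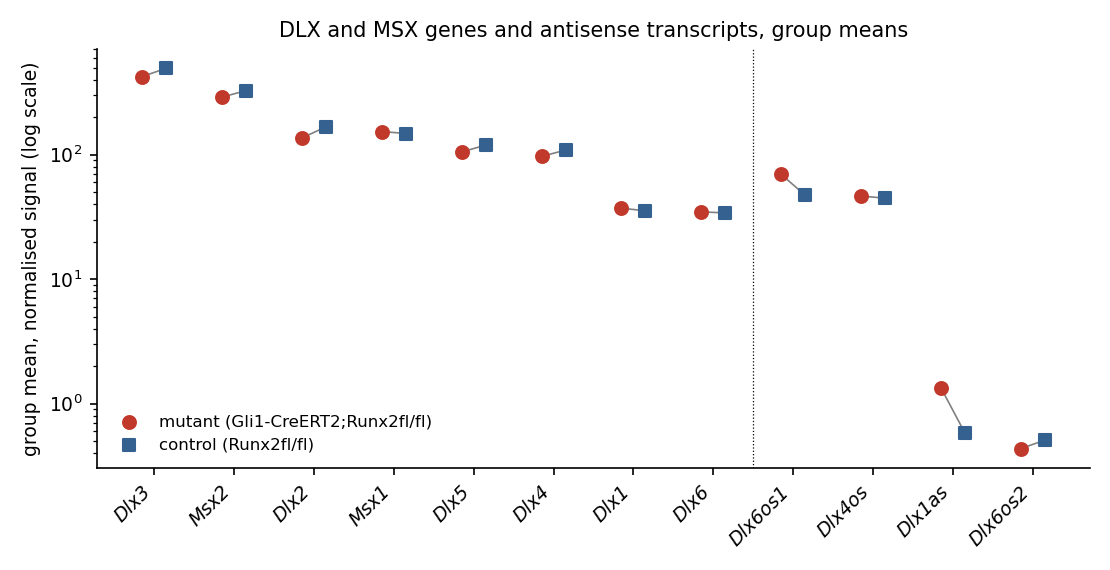
Group means of normalised signal (log axis) for the 8 members, in order of control mean, and for 4 antisense transcripts right of the dotted line, with mutant circles left of control squares. The 2 points of each member lie close together, over a range from 34.7 to 424.1 in the mutant and 34.0 to 494.0 in the control, while Dlx6os1 and Dlx1as have visibly higher mutant points.

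The order of the members by deposited control mean was Dlx3, Msx2, Dlx2, Msx1, Dlx5, Dlx4, Dlx1 and Dlx6. No source used here says whether the deposited values already account for gene length. Divided by exonic length, the control means ran from 189.5 per kb for Dlx3 and 99.7 for Msx2 through 58.5 for Dlx2, 52.7 for Dlx5, 47.7 for Msx1, 33.2 for Dlx4 and 14.3 for Dlx6 to 6.55 for Dlx1. Msx1 and Dlx5, and Dlx1 and Dlx6, changed places against the order of deposited means. In the mutant the order per kb was the same except that Msx1, at 49.5, stood above Dlx2, at 47.8, and Dlx5, at 46.4. Dlx3 and Msx2 together held 56.3% of the family's summed signal per kb in the mutant and 57.6% in the control. Within the pairs, Dlx2 exceeded Dlx1 by 6.94 times per kb in mutant and 8.93 times in control molars. Dlx5 exceeded Dlx6 by 3.18 times in mutant and 3.68 times in control molars, and Dlx3 exceeded Dlx4 by 5.49 times in mutant and 5.70 times in control molars. Which neighbours in this order differ beyond their spread cannot be said without values per library.

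Other genes at these levels give the sizes of change that were called, which is not a limit above which every change is called. Between the lowest and the highest control mean of the members lay 4474 genes, of which 44 passed the threshold (0.983%). The smallest change among those 44 was 1.24-fold and their median was 1.41-fold. The 1.23-fold difference of Dlx2 was under the smallest of them. No gene in that range was called with a change as small as those of the members, and the missing calls do not show that the levels were equal. Larger changes in that range were also not called, such as 1.62-fold for Runx2 (the authors' adjusted p = 0.0646) and 1.36-fold for Bmp4 (adjusted p = 0.0907). A call also depends on the spread of each gene, which is not given.

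**Figure D2:**
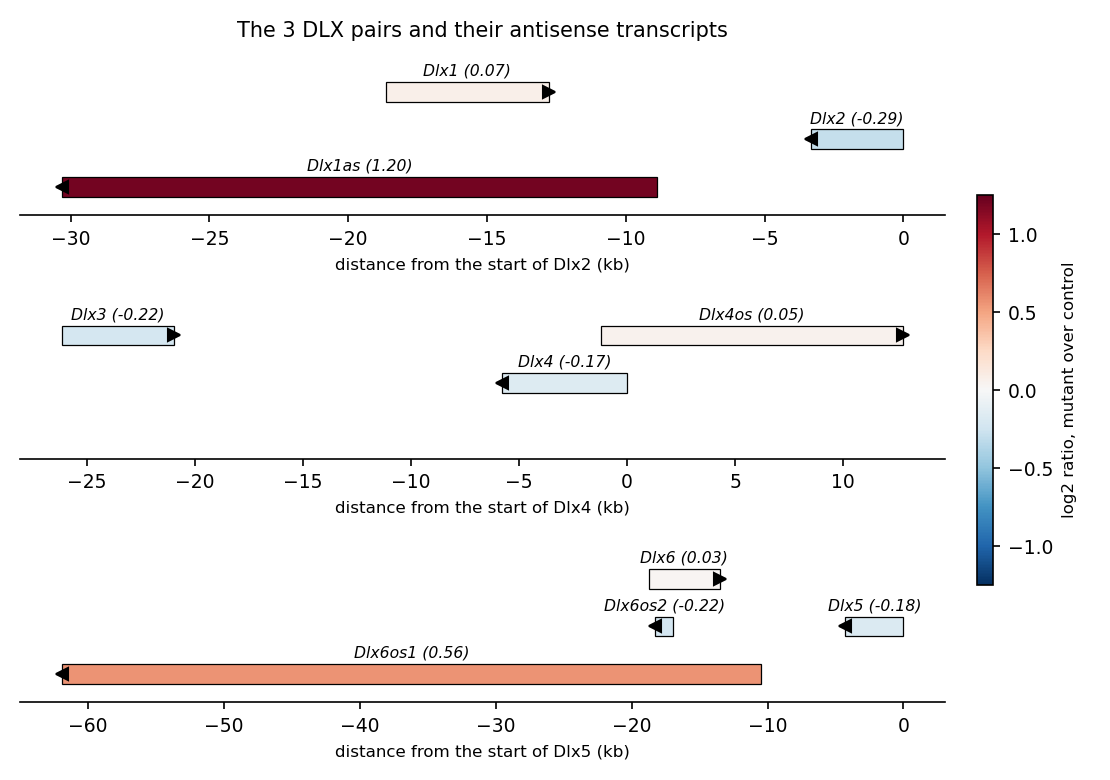
The 3 DLX pairs drawn to scale along the genome as gene spans in kb from the start of Dlx2, Dlx4 and Dlx5, with arrowheads for the direction of transcription. Bars are coloured by log2 ratio, mutant over control, which is printed beside each name: the coding genes are pale, from -0.29 to 0.07, and the wide spans of Dlx6os1 (0.56) and Dlx1as (1.20) are red.

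Dlx6os1 lies on the minus strand of chromosome 6, from 6820189 to 6871592 on GRCm38. Its span takes in the whole of Dlx6 (6863334 to 6868568, plus strand) and does not reach Dlx5 (6877805 to 6882085, minus strand). In mouse forebrain, transcripts of this locus take part in the control of Dlx5 and Dlx6 through the enhancers between them. Dlx6os1 had 69.5 in mutant and 47.2 in control molars, per the authors' deposited table (log2 ratio 0.56, p = 0.000132, adjusted p = 0.041). The log2 ratios of its neighbours were 0.03 for Dlx6 and -0.18 for Dlx5, neither past the threshold.

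The exons of Dlx6os1 and Dlx6 share 0 bases in GENCODE M21, and those of Dlx6os1 and Dlx5 share 0 as well. The exons of Dlx1as share 335 bases with Dlx1, which is 20.6% of Dlx1as, and those of Dlx4os share 79 bases with Dlx4. Dlx6os2 is a scarce transcript inside Dlx6, with 0.434 in mutant and 0.508 in control molars, and 104 of its bases overlap Dlx6 exons. No source used here gives the annotation or strand setting of the authors' counting, so reads of overlapping exons cannot be told apart. Among 143 genes that GENCODE types as antisense and whose higher mean reached 1, Dlx6os1 was the 1 that passed as higher in the mutant (0.699%), and 1, Gm43118, passed as lower (1.4% in both directions). The median log2 ratio of these 143 genes was -0.10.

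The comparison as a whole carried a trend on base composition. Median log2 ratios of protein-coding genes ran from 0.19 in the GC-poorest eighth to -0.13 in the GC-richest. Transcripts of the 8 members were 51.9% to 59.6% GC, all above the median of all genes (50.3%), and 2 of them, Dlx2 and Msx1, fell in the richest eighth. Dlx6os1, at 38.9% GC, was at percentile 2.16. A smooth fit on GC content and length gave log2 values of -0.13 to -0.04 at the members and 0.32 at Dlx6os1.

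After that fit was subtracted, Dlx2 stood at -0.16, Msx2 at -0.13, Dlx3 at -0.11, Dlx4 at -0.07 and Dlx5 at -0.06 on the log2 scale. Msx1 stood at 0.19, Dlx1 at 0.12 and Dlx6 at 0.09. All 8 kept the side of 0 they had before, the median of the members was -0.07, and none passed (0.165% of genes did). Dlx6os1 stood at 0.23 and no longer passed (adjusted p = 0.325, recomputed from the authors' p-values), while Dlx1as stood at 1.16 (adjusted p = 0.204, recomputed likewise). The fit was made on protein-coding genes and is applied to these non-coding transcripts by extension.

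**Figure D3:**
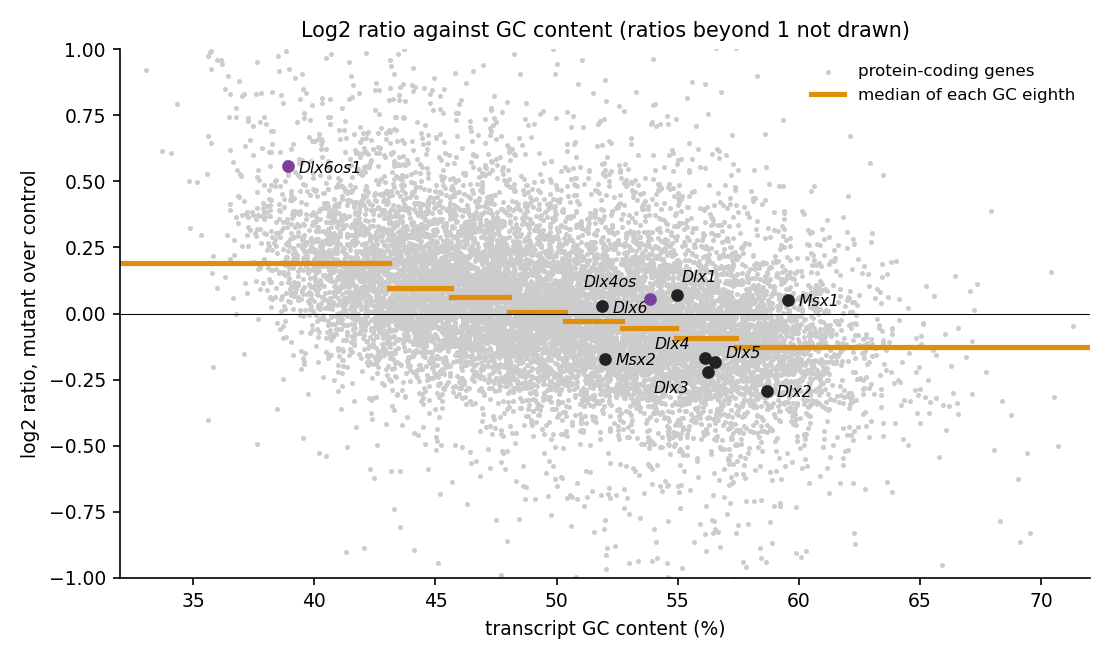
Log2 ratio, mutant over control, against transcript GC content in percent for protein-coding genes that reach a mean of 1 in either group (grey), with the median of each eighth (orange lines), the 8 members (black) and 2 antisense transcripts (purple). The medians step down from 0.19 to -0.13, the members lie at 51.9% GC and above, and Dlx6os1 lies at the GC-poor end.

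The group sums also differ, and scaling both groups to the same sum raises every log2 ratio by 0.14. Abundant genes weigh heavily in these sums, such as Amelx at 112174 in mutant and 174946 in control molars. Amelx itself did not pass (the authors' adjusted p = 0.457). Under the scaling to the same sum the members ran from -0.16 for Dlx2 to 0.21 for Dlx1, with a median of -0.03. The median over all genes rises by the same 0.14, so the distance of the members from it is unchanged. Dlx4, Msx2 and Dlx5 then lay at -0.03, -0.03 and -0.05. Signs were kept for all 8 members under this scaling, and so was that of Dlx6os1, at 0.69.

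**Figure D4:**
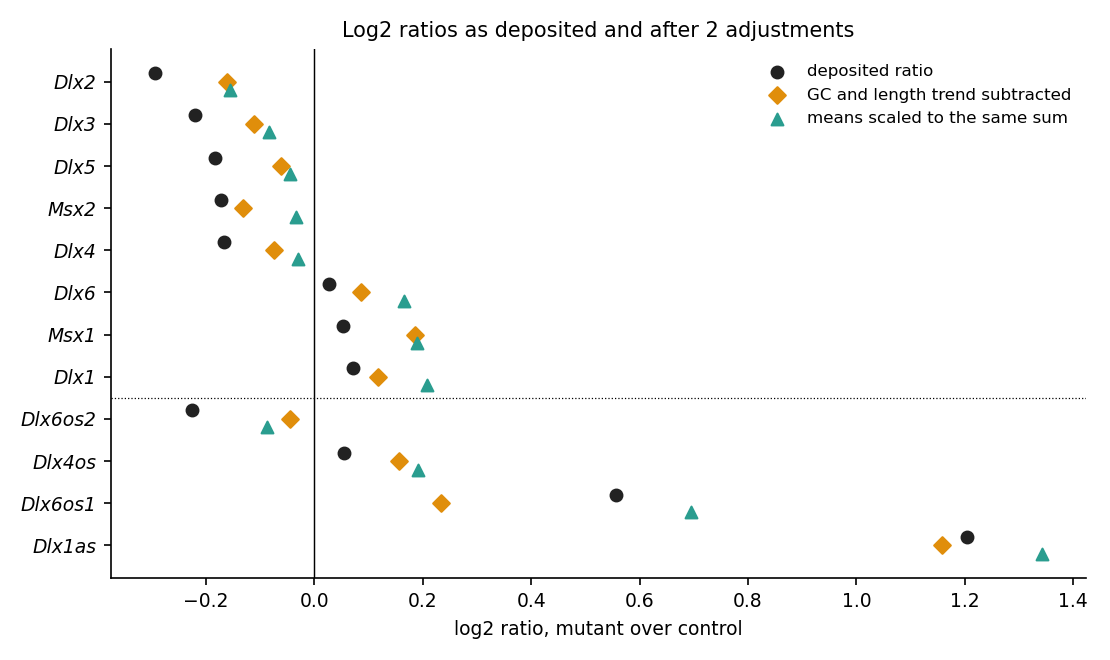
Log2 ratios, mutant over control, of the 8 members (above the dotted line) and 4 antisense transcripts, as deposited (circles), with the GC and length fit taken out (diamonds) and with group means scaled to the same sum (triangles). No gene crosses 0 between these settings, the members lie within -0.29 and 0.21, and Dlx6os1 moves from 0.56 to 0.23 when the fit is taken out.

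Markers of the cell types that express these genes were set beside them. Ameloblasts express Dlx3 and Msx2, and 6 of 7 ameloblast markers had lower means in the mutant, where 49.4% of all genes did. None of the 7 passed the threshold. The summed signal of the ameloblast markers was 178088 in mutant and 262615 in control molars. Amelx, at 112174 in mutant and 174946 in control molars (the authors' p = 0.181, adjusted p = 0.457), made up most of both sums. General dental epithelium markers summed to 3198 in mutant and 3247 in control molars, with 4 of 8 lower. Col1a1, which is on both the odontoblast and the osteoblast list, had 45190 in mutant and 45713 in control molars and made up most of both sums. The odontoblast markers summed to 53817 in mutant and 54693 in control molars, and without Col1a1 to 8627 in mutant and 8980 in control molars, with 5 of 6 lower. The osteoblast markers summed to 47905 in mutant and 49964 in control molars, and without Col1a1 to 2714 in mutant and 4251 in control molars. All 7 of them were lower, with a median log2 ratio of -0.84, and Sp7 and Bglap, described below, fell past the threshold. The dental mesenchyme markers summed to 2378 in mutant and 2126 in control molars, with 6 of 8 higher and Prrx1 past the threshold. Erythroid markers summed to 424.6 in mutant and 944.2 in control molars, all 6 were lower, and the globin gene Hba-a1 fell past the threshold (log2 ratio -1.27, the authors' adjusted p = 0.0484). Skeletal muscle markers summed to 2.93 in mutant and 5.43 in control molars. The 5 markers of cycling cells were all higher, and Mki67 rose 1.51-fold past the threshold (the authors' adjusted p = 0.0486). The calls of Hba-a1 and Mki67 were lost with the GC and length fit taken out, at log2 values of -1.07 and 0.47. No listed marker was at 0, and the part of these cell types in the DLX and MSX ratios was not tested.

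Upstream of Dlx5 and Dlx6 in the jaw stands endothelin signalling, and its receptor gene Ednra rose. Ednra had 54.1 in mutant and 37.1 in control molars, 1.46-fold higher (adjusted p = 0.0488 per the authors' deposited table). It was the 1 of 14 measured endothelin and jaw patterning genes to pass, where 0.788% of all genes did. Of those 14 genes, 10 had lower means, where 49.4% of all genes did, and the median log2 ratio of the 14 was -0.14. Tfap2b, a neural crest transcription factor, had 13.1 in mutant and 6.55 in control molars (the authors' adjusted p = 0.102), and the homeobox gene Pitx1 had 69.4 in mutant and 87.8 in control molars (adjusted p = 0.162). With the GC and length fit taken out of the authors' comparison, Ednra stood at log2 0.49, against 0.54 before, and did not pass (adjusted p = 0.133).

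BMP signals induce Msx1, Msx2 and several DLX genes in tooth mesenchyme. None of 21 measured BMP pathway genes passed, where 0.788% of all genes did, so this count says little about them. Their median log2 ratio was 0.00. The lowest p-values belonged to Bmpr2, a receptor, at 210.4 in mutant and 166.9 in control molars (the authors' adjusted p = 0.0882), to the ligand Bmp4 at 81.8 in mutant and 111.2 in control molars (adjusted p = 0.0907), and to Bmp7 at 205.1 in mutant and 243.5 in control molars (adjusted p = 0.135). With the GC and length fit taken out, Bmpr2 lay at a log2 value of -0.01, on the other side of 0, and Bmp4 at -0.36. None of 13 measured proteins described as binding DLX or MSX factors or acting with them passed either, against the same 0.788%. Among them the corepressor Tle4 had a log2 ratio of -0.24, the general transcription factor subunit Gtf2f1 -0.18 and the necdin gene Ndn 0.21, with adjusted p-values of 0.244, 0.252 and 0.29.

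Of 18 mineralised tissue genes with DLX or MSX regulation described in mouse, 17 had lower means in the mutant, where 49.4% of all genes did. Of the 18, 2 fell past the threshold, where 0.318% of all genes passed as lower. These were Sp7, a transcription factor of osteoblasts, at 117.7 in mutant and 154.8 in control molars (the authors' adjusted p = 0.0447), and Bglap, the osteocalcin gene, at 1252 in mutant and 2234 in control molars (adjusted p = 0.0484). Reads of Bglap may be split with its near-identical copies, which leaves its value uncertain. The median log2 ratio of this list was -0.50, against -0.17 for the DLX and MSX genes. The list holds osteoblast, odontoblast and ameloblast genes together, many of which are also among the markers above. It also counts Runx2 itself, the floxed gene (log2 ratio -0.70), so it is not separate from the design or from those markers. With the GC and length fit taken out none of its genes passed, but the log2 values stayed close to the first ones, at -0.32 for Sp7 (first -0.39), -0.64 for Bglap (first -0.84) and -0.47 for the median of the list.

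Among 27 measured other homeobox genes of tooth and jaw, Prrx1 alone passed, where 0.788% of all genes did. Prrx1 had 79.4 in mutant and 49.0 in control molars, 1.62-fold higher (the authors' adjusted p = 0.0474). Zfhx4 had 73.6 in mutant and 51.8 in control molars and lay just outside the threshold (the authors' adjusted p = 0.0531). The median of this list was 0.06, with 15 genes higher and 12 lower. With the fit taken out of the authors' comparison Prrx1 did not pass (log2 0.51, against 0.70 before, adjusted p = 0.271).

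**Figure D5:**
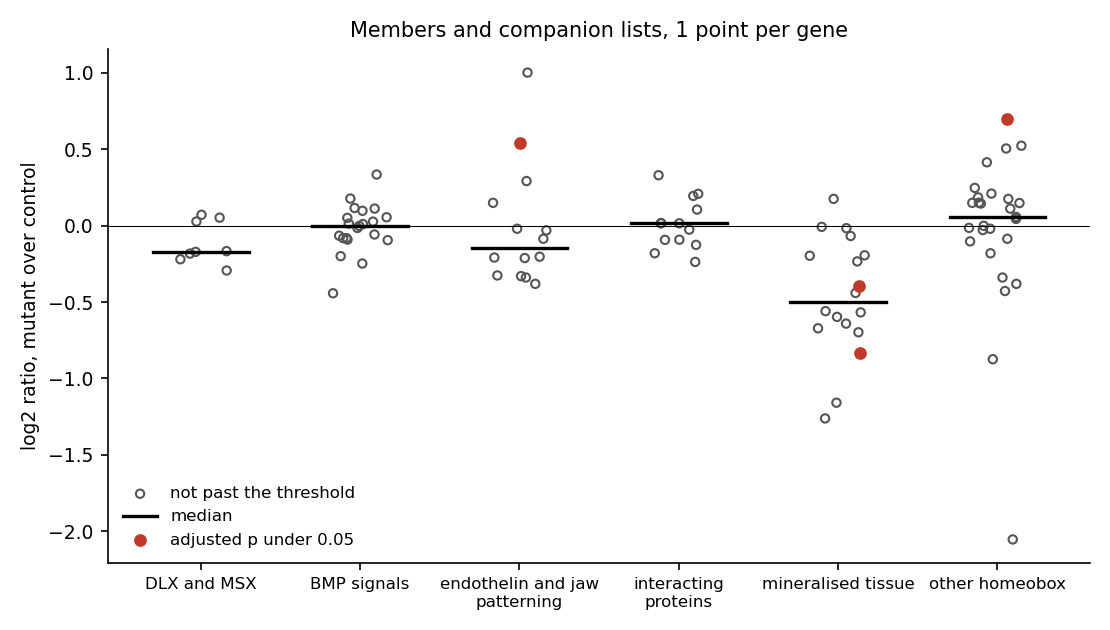
Log2 ratio, mutant over control, of each gene (points) in the DLX and MSX set and in 5 companion lists, with the median of each as a bar and genes past an adjusted p of 0.05 filled in red. The DLX and MSX points lie between -0.29 and 0.07, while the mineralised tissue list has its median at -0.50.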

How the data were processed

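RNA sequencing of 4 mutant and 4 control libraries was deposited as 1 table of 17631 genes. Per the submitters' processing notes, STAR 2.6.1d, Partek and mm10 were used, without their roles; no source used here gives the annotation, counting or normalisation. The group means and the total are normalised signal made by the authors, not read counts. Per the file headers the table gives the authors' p-value and its step-up adjustment, the ratio of mutant over control, and a signed fold score. The total equalled 4 times the sum of both means, the ratio equalled their quotient (relative tolerance 1e-06), and the adjusted p equalled the Benjamini-Hochberg value, for all 17631 genes. No test on counts was possible, so a call is the authors' adjusted p under 0.05.

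Symbols matched GENCODE M21 on GRCm38, the assembly mm10 names, for 17562 genes (99.6%), giving position, exonic length and transcript GC. The trend on GC content and log2 length was fitted to 13128 protein-coding genes that reach a mean of 1 in either group (mgcv 1.9.3, R 4.3.3). A fit to the signed z gave the adjusted p-values and took 25.9% of its variance. A separate fit to the log2 ratio gave the log2 values and took 18.9% of its variance. The fit to z was tested on simulated data. With a planted GC trend over 17562 genes, 95.0% of 200 genes shifted by 5 in z were recovered and 2.06% of calls were false. No smaller shift was simulated, so this check cannot say whether the calls lost with the fit were real changes. Promoter windows are RefSeq's, GRCm38.p6. Members and lists were chosen with earlier results of these data known. Named genes are the members, the antisense transcripts of their loci, Runx2, Gli1 and, per list, called genes and the 3 lowest p-values; Msx3 was not analysed here. A further gene that this rule takes is not reported here. Amelx and Dspp were named as tissue checks.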

Additional observations from a re-analysis of the deposited data

How the results depend on the processing

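The table holds no values per library, which limits every statement here: depth is unknown, leaving out each replicate was not run, and no error can be attached to a ratio. No paired analysis was possible because the deposited columns are group means without replicate numbers. The number of DLX and MSX genes called was 0 as reported, at an adjusted p of 0.1, after genes with low means were filtered and with the GC and length fit taken out, and 2 at an unadjusted p under 0.05. Over all genes these settings called 641 genes at 0.1, 168 after the filter, 29 with the fit taken out and 3401 unadjusted, against 139. All 8 members kept their direction under scaling to the same sum and with the fit on GC and length taken out. Direction was also kept with a pseudocount of 1, which cannot change a sign, and with median centring. Median centring subtracts only 0.003, less than the smallest log2 ratio of a member (0.03 for Dlx6), so neither setting tests direction. The order of the members by control mean kept 4 of 8 places after division by exonic length. At an adjusted p of 0.1, 2 BMP genes, 4 mineralised tissue genes and 2 other homeobox genes passed, and 1 endothelin and jaw patterning gene as before. With the fit taken out, 0 genes passed in each of the 5 lists, where 29 of 17562 genes passed in all, while Ednra (0.49), Sp7 (-0.32), Bglap (-0.64) and Prrx1 (0.51) kept their direction on the log2 scale. From the authors' p-values, Dlx6os1 lost its call with it (log2 0.23, adjusted p = 0.325) and kept it after the low filter (adjusted p = 0.0341). The cause was not tested.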
